A study of Mus musculus with 9 samples.

Results

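The genes described here are immediate early transcription factors and regulators linked to the villus tip of the small intestine, namely Fos, Fosb, Jun, Junb, Egr1, Atf3, Klf4, Klf6 and Ier2, together with the growth factor receptor gene Egfr. They were taken from the gene table by the Ensembl identifiers of a fixed list of 10 names, and all 10 were found among the 31685 genes listed. RNA came from the jejunum of 9 C57BL/6J wild-type mice, 3 in each group, all collected on day 3. Control mice had no treatment. TAI mice received 12 Gy of total abdominal X-ray irradiation and PBS, and TAI/IVIg mice received the same irradiation with 500 mg/kg of IVIg, which is pooled human immunoglobulin given intravenously, within 1 h after irradiation and again every 3 days. No group received sham irradiation or IVIg without irradiation, so an effect of the injection or of the immunoglobulin alone cannot be told apart from its effect after irradiation. The labels place all libraries in the same batch.

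Immediate early genes are switched on within minutes of a stimulus, before new proteins are made. Ligand binding to EGFR, a receptor tyrosine kinase of the ErbB family, activates the RAS and ERK kinases, which act on transcription factors such as SRF and ELK1 at the promoters of Fos and Egr1. Fos and Jun proteins then pair to form AP-1, a dimer that binds DNA and sets the expression of further genes. In the mouse villus, enterocytes migrate from the crypt to the tip, and AP-1 genes, Klf4 and Egfr are known to be expressed most strongly towards the tip.

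Promoter windows were available in RefSeq (GRCm38.p6) for 8 of the 10 genes, each running from 250 bases before the start site to 50 bases after it; Egr1 and Ier2 were not matched. Printed here are Fos, Klf4 and Egfr, the genes that were higher than control in both irradiated groups, and Junb, an AP-1 gene that passed the threshold in neither, each from 250 bases before to 30 bases after the start site, 5′ to 3′ on the gene's own strand. The stretches are chr12:85473640-85473919 on the plus strand for Fos, chr4:55532446-55532725 on the minus strand for Klf4, chr11:16751953-16752232 on the plus strand for Egfr and chr8:84978719-84978998 on the minus strand for Junb. Capitals mark matches, on either strand, to the motifs named in the next paragraph.
Fos: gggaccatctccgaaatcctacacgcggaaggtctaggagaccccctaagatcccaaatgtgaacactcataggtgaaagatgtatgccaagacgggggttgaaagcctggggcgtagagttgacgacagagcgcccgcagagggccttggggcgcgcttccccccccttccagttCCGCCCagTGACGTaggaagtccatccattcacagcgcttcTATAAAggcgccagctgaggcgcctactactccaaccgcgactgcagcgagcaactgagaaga
Klf4: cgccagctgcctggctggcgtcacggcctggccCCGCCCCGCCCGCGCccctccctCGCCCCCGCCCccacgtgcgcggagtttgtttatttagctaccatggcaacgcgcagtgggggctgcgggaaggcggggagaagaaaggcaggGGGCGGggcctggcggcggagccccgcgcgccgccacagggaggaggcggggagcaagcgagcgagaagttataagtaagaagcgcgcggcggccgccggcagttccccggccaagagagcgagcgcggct
Egfr: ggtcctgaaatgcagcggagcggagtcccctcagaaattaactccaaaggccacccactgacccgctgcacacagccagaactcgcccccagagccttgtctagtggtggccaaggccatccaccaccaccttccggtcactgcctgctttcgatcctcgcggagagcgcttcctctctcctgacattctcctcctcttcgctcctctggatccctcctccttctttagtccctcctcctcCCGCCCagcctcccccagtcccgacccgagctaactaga
Junb: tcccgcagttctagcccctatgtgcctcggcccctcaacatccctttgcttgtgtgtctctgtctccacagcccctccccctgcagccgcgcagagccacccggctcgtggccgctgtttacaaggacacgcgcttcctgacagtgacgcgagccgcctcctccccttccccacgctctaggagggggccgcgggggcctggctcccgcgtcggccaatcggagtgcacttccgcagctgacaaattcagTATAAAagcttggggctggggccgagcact

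Matches were counted on both strands over the full windows. TGACGT, the core of the cAMP response element, was found in 2 of the 8 windows, beginning 66 bases before the start of Fos and 8 bases before that of Atf3, and in 7.51% of 32851 mouse promoter windows. TATAAA, the letters of a TATA box, was found in 2 of 8, beginning 33 bases before the start of Fos and at the RefSeq start base itself in Junb, and in 13.6% of all windows. GGGCGG, the GC box recognised by Sp and Klf factors, was found in 7 of 8, all but Junb, and in 35.7% of all windows. GCGNGGGCG, the element bound by Egr1, was found in 2 of 8, Fosb and Klf4, in both of which it overlapped a GGGCGG, and in 5.55% of all windows. TGANTCA, the AP-1 element, and the CArG box bound by SRF were found in 0 of 8, against 7.81% and 1.63% of all windows. These matches describe letters in a short window and are not binding sites. Egr1 had no window and sequence further from the start sites was not searched. A count of 0 therefore does not show that these genes lack the element.

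The libraries held between 16284530 and 18244736 reads assigned to genes, as recovered from the deposited values (median 17312589), and no pair held identical values. Levels are given as FPKM, fragments per kilobase of exon, scaled to the reads assigned to genes, which allows levels of different genes to be set side by side. Of the 31685 genes, 13056 had at least 1 FPKM in at least 3 mice and were tested, among them 9 of the 10 genes; Fosb was below this level. The tissue is labelled as jejunal epithelial tissue, and all 7 epithelial markers were expressed, at a summed level of 3904 to 5326 FPKM over the mice. Smooth muscle markers (113 to 765 FPKM summed over 6 genes), fibroblast markers (21.1 to 94.2 over 6) and leukocyte markers (27.2 to 351 over 9) were expressed as well, and none of their genes was at 0 in all mice of a group, so the RNA was not of epithelium alone. Leukocyte markers stood highest of their groups in control mouse 3 (351 FPKM), TAI mouse 3 (225) and TAI/IVIg mouse 2 (232), and smooth muscle markers lowest in TAI/IVIg mouse 3 (113). In such RNA, fewer cells of a type and less RNA per cell cannot be told apart.

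Klf4, a zinc finger factor of differentiated enterocytes, was the most abundant of the 10 in every group, with a mean of 92.7 FPKM in control mice, 159 with TAI and 194 with TAI/IVIg (n = 3 each). In control jejunum it was followed by Klf6 (69.5 FPKM), Junb (61.6), Atf3 (51.6), Fos (44.1) and Jun (35.7), each of which overlapped its next lower neighbour in range down to Jun. Ier2 (22.0), Egr1 (6.09), Egfr (2.02) and Fosb (0.719) followed without overlap. Fos moved from the fifth place in control to the third in TAI and the second in TAI/IVIg. In TAI the ranges of Klf4 and Klf6 did not overlap, nor did those of Fos and Junb. In TAI/IVIg the wide ranges left neighbours overlapping from Klf4 down to Ier2. Egr1 ranked above Egfr in control and TAI, and the ranges of both genes overlapped in TAI/IVIg (2.66 to 8.17 and 4.40 to 8.25 FPKM).

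**Figure D1:**
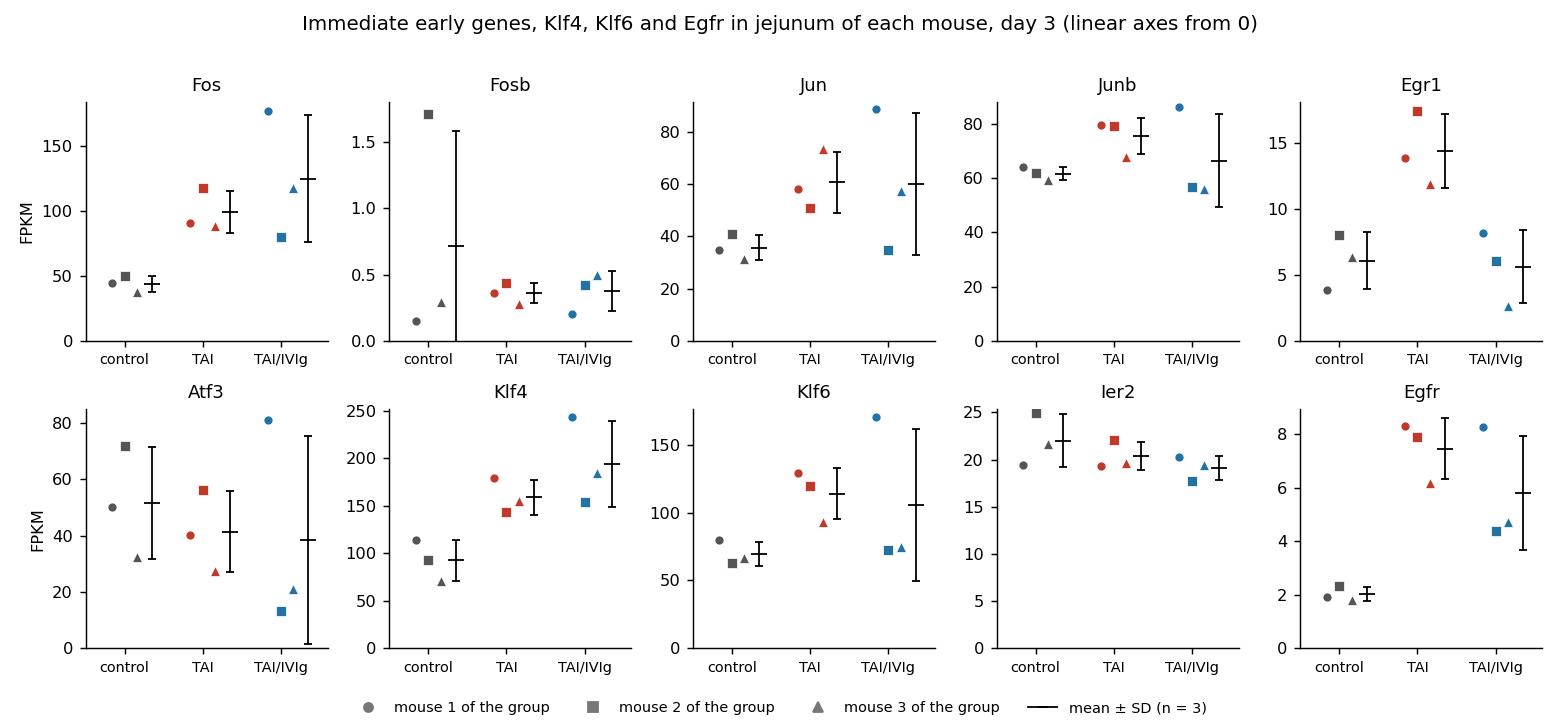
FPKM (vertical axes, linear from 0, a separate scale for each gene) of the 10 genes in each of the 9 mice by group; points are mice and bars the mean ± SD of 3 mice, with the lower bar of Fosb in control cut at 0. Fos, Klf4 and Egfr lie above every control mouse in both irradiated groups, Egr1 only in TAI, and TAI/IVIg mouse 1 (circle) is the highest of its group in 9 of the 10 panels.

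Irradiation alone against no treatment asked how these genes stood 3 days after 12 Gy. Fos, Klf4, Egr1 and Egfr were higher in TAI than in control, 4 of the 9 tested genes, while 8.81% of all 13056 genes were higher (limma on log2(FPKM + 1), Benjamini-Hochberg adjusted p under 0.05). None of the 9 was lower, where 26.1% of all genes were. The median log2 fold change of the 9 was 0.74, beside −0.23 for all genes tested. In 7 of the 9 every TAI mouse was above every control mouse, which was so for 15.1% of all genes. With 3 mice against 3, an exact permutation test of a single gene cannot give a two-sided p below 0.10.

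Egfr changed most. Its level was 1.92, 2.32 and 1.82 FPKM in control mice 1 to 3 and 8.32, 7.88 and 6.18 in TAI mice 1 to 3. The groups stood far apart, the lowest TAI mouse having more than the highest control mouse. The ratio of the mean FPKM was 3.69, and the log2 fold change was 1.48 (SE 0.21, adjusted p = 0.00189). These values rested on 356 to 465 recovered reads in control and 1278 to 1614 in TAI. The gene lies at chr11:16752203-16918158 (GRCm38) on the plus strand.

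Among the AP-1 genes of the set, Fos rose. It was at 44.4, 50.1 and 37.9 FPKM in control mice and at 91.0, 118 and 88.8 in TAI mice, without overlap. The ratio of means was 2.25, with a log2 fold change of 1.15 (SE 0.27, adjusted p = 0.0118). Fos lies at chr12:85473890-85477273 (GRCm38) on the plus strand. Jun, the usual partner of Fos, was at 34.9, 40.9 and 31.2 FPKM in control and 58.0, 50.7 and 73.5 in TAI. Its groups did not overlap either, but its log2 fold change of 0.74 (SE 0.30) did not pass the threshold (adjusted p = 0.0852). Jun passed it with quantile normalization (adjusted p = 0.0459), with voom on recovered reads and median-ratio library sizes (0.0488), with only the 6 mice compared in the fit (0.0174), and without TAI/IVIg mouse 1 or mouse 2 (0.0305 and 0.0288), which add to the shared estimate of the spread.

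Junb, a weaker activator of the Jun family, was at 63.9, 61.9 and 59.1 FPKM in control and 79.5, 79.0 and 67.8 in TAI. The ranges did not overlap, yet the difference was small, with a log2 fold change of 0.28 (95% confidence interval −0.11 to 0.68, adjusted p = 0.232). Atf3, a stress-induced member of the ATF family that pairs with Jun proteins, was at 50.3, 71.9 and 32.4 FPKM in control and 40.4, 56.1 and 27.5 in TAI. Its groups overlapped over most of their range, and the interval of its log2 fold change was wide (−0.30, −1.63 to 1.04, adjusted p = 0.714). Fosb, the closest relative of Fos, was scarcely expressed, at 0.147, 1.71 and 0.296 FPKM in control and 0.365, 0.433 and 0.281 in TAI. It stood high in control mouse 2 alone, with 189 recovered reads, against 16 to 52 in the other mice. Without a fit for this gene, an exact two-sided permutation test gave p = 0.90.

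Egr1, a zinc finger factor and classical target of ERK signalling, was at 3.82, 8.05 and 6.39 FPKM in control mice and 13.8, 17.4 and 11.9 in TAI mice. All TAI mice were above the control mice, with a ratio of means of 2.36 and a log2 fold change of 1.15 (SE 0.35, adjusted p = 0.0322). Klf4 was at 114, 93.3 and 70.8 FPKM in control and 180, 144 and 155 in TAI, also without overlap. Its ratio of means was 1.72 and its log2 fold change 0.79 (SE 0.22, adjusted p = 0.0231). Klf4 lies at chr4:55527143-55532466 (GRCm38) on the minus strand. Both calls were close to the threshold. Egr1 kept its call in 4 of the 9 fits that left out a mouse and lost it without control mouse 1 or 3 or any of the TAI mice (log2 fold changes of 0.90, 1.20, 1.17, 1.01 and 1.27, adjusted p up to 0.0950). Klf4 kept its call in 5 of 9 and lost it without control mouse 2 or 3 or TAI mouse 1 or 3 (0.81, 0.62, 0.71 and 0.81, adjusted p up to 0.0896). Fos and Egfr kept theirs in 9 of 9. Without the filter on low values, Egr1 and Klf4 were also not called (adjusted p = 0.0780 and 0.0547).

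Klf6, a Klf factor induced early by injury and growth factors, was at 79.5, 62.5 and 66.5 FPKM in control and 129, 120 and 92.9 in TAI. Its ranges did not overlap, and the log2 fold change of 0.70 (SE 0.31) had an adjusted p of 0.109. It was called with quantile normalization (0.0442), in the fit of the 6 mice compared (0.0190) and without TAI/IVIg mouse 1 (0.0111). Ier2, a nuclear protein of the immediate early class, was at 19.4, 25.0 and 21.7 FPKM in control and 19.4, 22.1 and 19.6 in TAI. Its groups overlapped, with a log2 fold change of −0.10 (95% confidence interval −0.40 to 0.19, adjusted p = 0.552), which was above 0 with library medians set equal (0.18), quantile normalization (0.15) and median-ratio library sizes (0.19).

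The deposited scaling bears on these directions. With the median log2 level of every library set equal, the median log2 fold change of all genes moved from −0.23 to 0.05, and the calls of 1150 genes higher and 3411 lower became 2159 and 1823. With voom and median-ratio library sizes they were 1976 and 1913, and with quantile normalization 1994 and 2284. Relative to the median of all genes, the log2 fold changes were 1.72 for Egfr, 1.38 for Fos, 1.38 for Egr1, 1.03 for Klf4, 0.98 for Jun, 0.93 for Klf6, 0.52 for Junb, 0.13 for Ier2 and −0.06 for Atf3. Fos, Klf4, Egr1 and Egfr were higher under each of these scalings.

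Irradiation with IVIg against no treatment gave calls for Fos, Klf4 and Egfr, 3 of the 9 tested genes higher, where 9.06% of all genes were higher. None was lower, where 37.4% of all genes were. The median of the 9 was 0.49 on the log2 scale beside −0.39 for all genes. The same 3 genes were those in which the groups did not overlap, a pattern that 11.5% of all genes showed. This comparison uses the same control mice as the previous one, so the values of both are set side by side without a test of their likeness. With library medians set equal the median of all genes moved from −0.39 to 0.10, and the calls over all genes from 1183 higher and 4880 lower to 2880 and 1894. They were 2419 and 2379 with median-ratio library sizes and 2407 and 2253 with quantile normalization.

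Fos stood at 178, 80.2 and 118 FPKM in TAI/IVIg mice 1 to 3. Even the lowest of them was above the highest control mouse, with a ratio of means of 2.84 and a log2 fold change of 1.42 (SE 0.27, adjusted p = 0.00330). Klf4 stood at 243, 154 and 185 FPKM, all above control, with a ratio of 2.09 and a log2 fold change of 1.06 (SE 0.22, adjusted p = 0.00509). Egfr stood at 8.25, 4.40 and 4.73 FPKM, about 2.87 times the control mean, with a log2 fold change of 1.13 (SE 0.21, adjusted p = 0.00343). These calls held in 9 of 9 fits with a mouse left out and in 10 of 10 other settings.

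Of the genes without a call, Jun was at 88.7, 34.6 and 57.3 FPKM, the middle of its group above and the lowest mouse within the control range (log2 fold change 0.65, adjusted p = 0.107). It was called with library medians set equal (0.0392), with median-ratio library sizes (0.0293) and without TAI/IVIg mouse 2 (0.0115). Egr1 was at 8.17, 6.06 and 2.66 FPKM, overlapping control almost completely, with a log2 fold change of −0.15 (95% confidence interval −0.94 to 0.64, adjusted p = 0.738). Its sign depended on the scaling, being above 0 with library medians set equal (0.34), quantile normalization (0.34) and median-ratio library sizes (0.30), and without control mouse 2 (0.05) or TAI/IVIg mouse 3 (0.23). Klf6 was at 170, 72.5 and 74.4 FPKM (log2 fold change 0.49, adjusted p = 0.217) and Junb at 86.3, 56.9 and 56.1 (0.08, adjusted p = 0.726). Mouse 1 alone was above the control range in both genes, and its 2 group mates were within that range in Klf6 and below it in Junb, whose sign turned without mouse 1 (−0.12). Atf3 was at 80.9, 13.4 and 20.9 FPKM, mouse 1 above and both other mice below every control mouse (−0.76, adjusted p = 0.310), and without mouse 1 it was called lower (−1.49, adjusted p = 0.0197). Ier2 was at 20.2, 17.7 and 19.4 FPKM, within or just below the control range (−0.19, adjusted p = 0.250), with its sign turned under library medians set equal, quantile normalization and median-ratio library sizes (0.30, 0.13 and 0.28). Fosb was at 0.205, 0.424 and 0.497 FPKM.

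**Figure D2:**
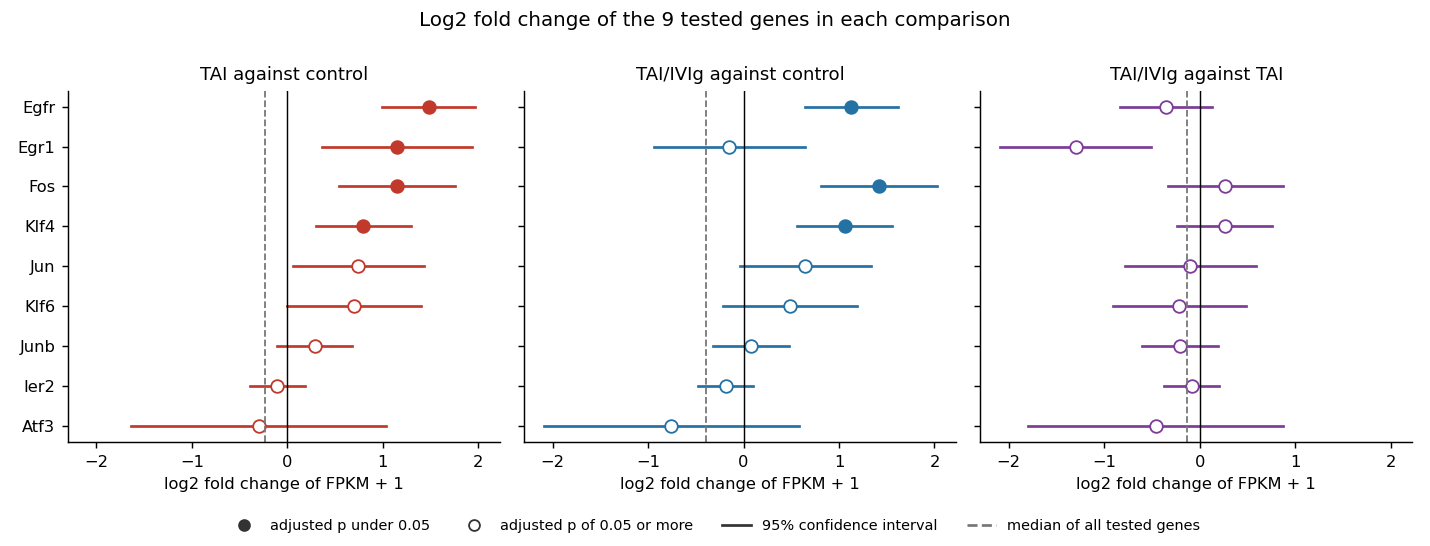
Log2 fold change of FPKM + 1 (horizontal axis) of the 9 tested genes in each comparison, with 95% confidence intervals from limma; filled circles have an adjusted p under 0.05, and the dashed line is the median of all 13056 genes. Egfr, Fos and Klf4 are filled in both comparisons with control, Egr1 in TAI alone, and no circle is filled in TAI/IVIg against TAI.

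IVIg after irradiation against irradiation alone asked whether the antibody moved these genes. None of the 9 was called, as was the case for all genes, of which 0% were higher and 0% lower at an adjusted p under 0.05 (smallest adjusted p = 0.353). At an unadjusted p under 0.05, 1.64% of all genes were higher and 11.2% lower, and of the 9 genes 0 were higher and 1, Egr1, was lower. Voom on recovered reads also called 0 genes, with either library size, while 4 genes were called lower without the filter on low values and 3 with a replicate block. Egr1 was the only one of the 9 whose groups did not overlap, being lower in TAI/IVIg, which was so for 16.1% of all genes, while 3.09% were higher without overlap. Its 3 TAI mice lay between 11.9 and 17.4 FPKM and its 3 TAI/IVIg mice between 2.66 and 8.17. The ratio of means was 0.392 and the log2 fold change −1.30 (SE 0.35, unadjusted p = 0.00477, adjusted p = 0.353), against a median of −0.13 over all genes. Over the 9 fits with a mouse left out its log2 fold change ran from −1.58 to −0.92, with no call.

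The other 8 genes overlapped between the irradiated groups. Their intervals show what these mice could resolve. Ier2 was the most tightly set, with a log2 fold change of −0.08 (95% confidence interval −0.38 to 0.21), and Junb followed (−0.21, −0.60 to 0.19). Klf4 (0.26, −0.23 to 0.76) and Fos (0.27, −0.34 to 0.87) had intervals that reached further above 0 than below it. That of Egfr (−0.35, −0.84 to 0.13) lay mostly below 0. Jun (−0.10, −0.78 to 0.59), Klf6 (−0.21, −0.91 to 0.49) and Atf3 (−0.46, −1.79 to 0.88) were less certain. The signs of Jun and Ier2 turned with library medians set equal (0.11 and 0.12), that of Fos without TAI/IVIg mouse 1 (−0.02) and that of Atf3 without TAI/IVIg mouse 2 (0.06).

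Stromal markers moved in the same direction as Egr1 between the irradiated groups. So did most tested genes, 9084 of 13056 having a log2 fold change below 0. All 6 fibroblast markers and all 6 smooth muscle markers were lower in TAI/IVIg at an unadjusted p under 0.05, beside 11.2% of all genes. Of these 12 markers, 0 passed the adjusted threshold. The fibroblast sum was 65.8 to 92.1 FPKM in control, 73.7 to 94.2 in TAI and 21.1 to 47.9 in TAI/IVIg. The smooth muscle sum was 482 to 621, 536 to 765 and 113 to 554 FPKM in the same order. TAI/IVIg mouse 3 was lowest in Egr1 and in both sums. In TAI against control, where Egr1 was higher, 0 of these 12 markers were called, beside 8.81% of all genes higher and 26.1% lower. All 6 smooth muscle markers and 4 of the 6 fibroblast markers had a log2 fold change above 0 in that comparison. The list medians were 0.28 and 0.10, against −0.23 for all genes. The part of stromal RNA in the level of Egr1 was not tested.

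Nr4a1, an orphan nuclear receptor gene of the immediate early class, was chosen after its values were seen because it followed Egr1. It was at 1.07, 1.21 and 2.83 FPKM in control, 3.68, 5.08 and 6.11 in TAI and 1.38, 1.86 and 0.54 in TAI/IVIg. TAI stood above both other groups without overlap, with a log2 fold change of 1.18 over control (adjusted p = 0.0177) and of −1.42 for TAI/IVIg over TAI (unadjusted p = 0.00119, adjusted p = 0.353).

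**Figure D3:**
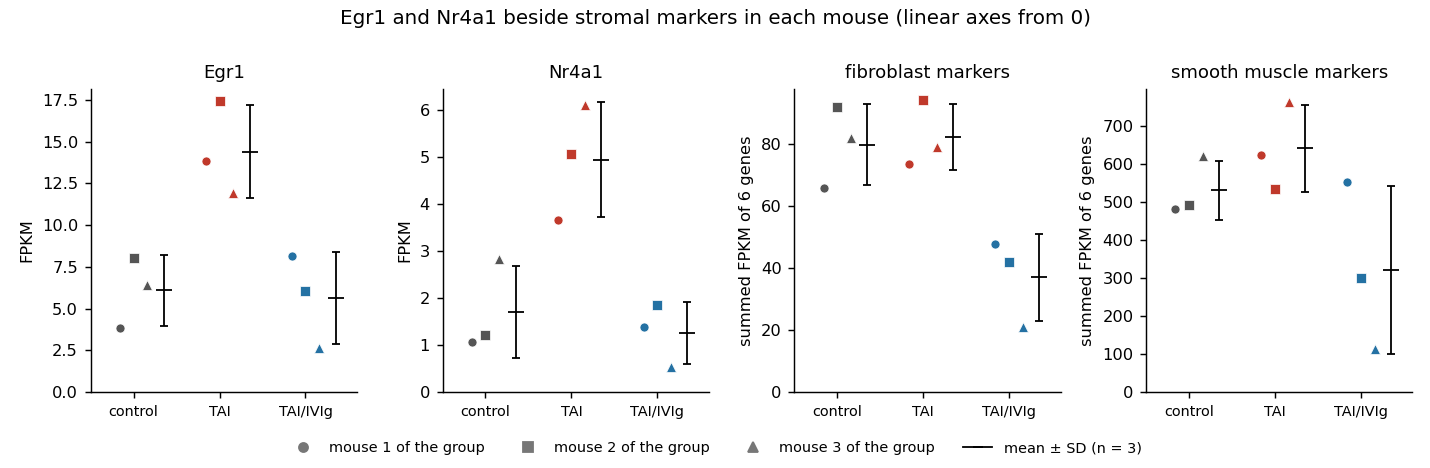
FPKM of Egr1 and Nr4a1 and the summed FPKM of 6 fibroblast and 6 smooth muscle markers (vertical axes, linear from 0) in each mouse; points are mice and bars the mean ± SD of 3 mice. Both genes are highest in TAI and within or near the control range in TAI/IVIg, where the fibroblast sum of 21.1 to 47.9 FPKM lies below all other mice. Nr4a1 was chosen because it followed Egr1, and neither gene was called between the irradiated groups.

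The coefficient of variation was larger among TAI/IVIg mice than in either other group in 8 of the 9 tested genes, in Klf4 only just (23.3% in control and 23.4% in TAI/IVIg). In Ier2 it was smallest there (12.7%, 7.37% and 6.74% in control, TAI and TAI/IVIg). The share of all genes with their largest coefficient of variation in TAI/IVIg was not computed, so this count cannot be read as particular to these genes. Whether the spread differs between groups was not tested. The coefficient of variation of Fos was 13.9% among control mice, 16.2% among TAI mice and 39.3% among TAI/IVIg mice, that of Klf6 12.8%, 16.5% and 52.8%, and that of Atf3 38.3%, 34.7% and 96.2%. TAI/IVIg mouse 1 was the highest of its group in all 9 tested genes, although it was the highest in only 25.9% of all tested genes. Its median deviation from the group mean was 0.57 on the log2 scale over the 9 genes and −0.07 over all genes. TAI/IVIg mouse 2 was the lowest in 7 of the 9 and in 12.0% of all genes. Atf3 spread most, with a ratio of 6.02 between the highest and the lowest mouse, and Ier2 least, with 1.14. The summed markers of TAI/IVIg mouse 1 were 10655 FPKM for the villus tip, 4531 for the epithelium and 554 for smooth muscle, each the highest of its group, and 40.9 for leukocytes, where mouse 2 had 232. The part of tissue composition in these deviations was not tested.

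By coefficient of variation the mice of the other groups were closer in 8 of the 9 tested genes, in Klf4 only just, and not in Ier2. Control mouse 2 was highest in 6 of the 9 tested genes and in 33.7% of all tested genes. Control mouse 3 was lowest in 6 of the 9 and in 22.1% of all genes. It was highest in 0 of the 9, although it was highest in 49.1% of all genes. TAI mouse 3 was lowest in 6 of the 9 and in 36.2% of all genes. Without TAI/IVIg mouse 1, 6 of the 9 genes were called higher in TAI than in control, Jun and Klf6 being added. Without control mouse 3, TAI mouse 1 or TAI mouse 3, only 2 were called, Fos and Egfr.

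**Figure D4:**
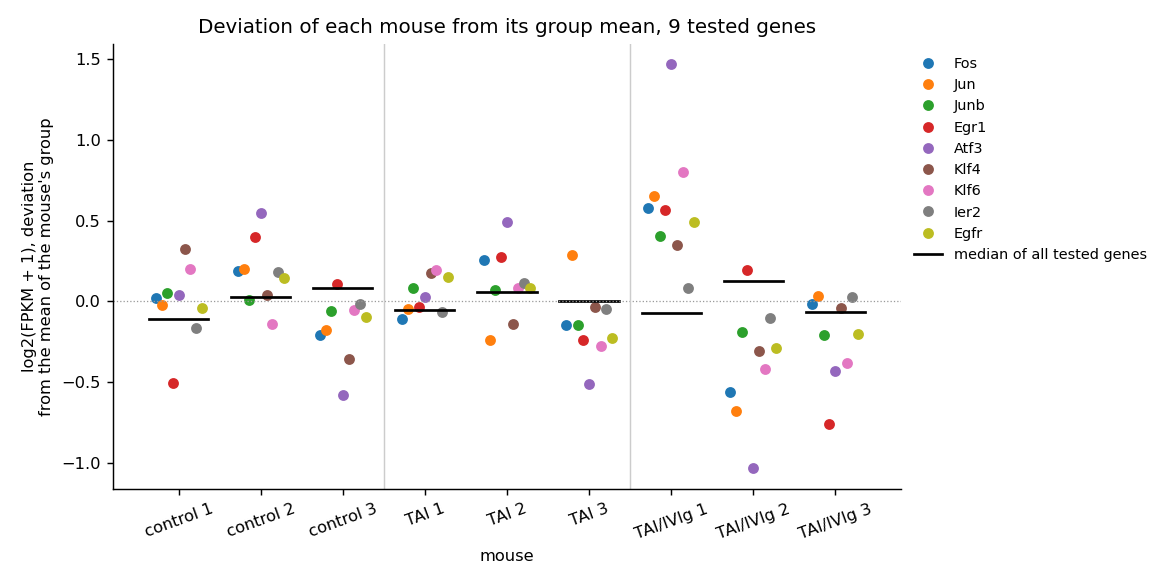
Deviation of log2(FPKM + 1) from the mean of the mouse's own group (vertical axis) for the 9 tested genes (colours) in each of the 9 mice; the black bar is the median deviation of all tested genes in that mouse. All 9 genes are above 0 in TAI/IVIg mouse 1, with a median of 0.57, while the median of all genes there is −0.07.

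The profiles over the 9 mice were compared with those of 6398 genes of mean FPKM of at least 5, after scaling each gene to mean 0 and SD 1. The distance is the root mean square difference between profiles. The nearest to Fos were Smad7, an inhibitor of TGF-beta signalling (distance 0.152), Errfi1, a feedback inhibitor of EGFR (0.201), and Cldn7, a tight junction protein (0.236). Errfi1 had means of 27.8, 77.7 and 88.4 FPKM in control, TAI and TAI/IVIg. Nearest to Klf4 were Arhgef16 (0.198), C130074G19Rik (0.233) and Krt20 (0.237), a keratin of differentiated enterocytes with means of 1771, 2874 and 3120 FPKM. Nearest to Egfr were Card14 (0.102), a scaffold of NF-kappaB signalling with means of 1.49, 16.5 and 10.8 FPKM, Amotl2 (0.180) and Prkx (0.190). Among the 8 other tested genes described here, Fos was nearer to Klf4 (0.393) and Egfr (0.444) than to its partner Jun (0.575), and farthest from Ier2 (1.60). With 9 mice and 6398 genes such distances are a description.

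The genes around the EGFR pathway did not move as a block. Both other ErbB receptors with a level above the filter were higher in TAI and in TAI/IVIg than in control. Erbb3, which signals as a partner of ErbB2, had means of 21.1, 91.0 and 102 FPKM in control, TAI and TAI/IVIg (log2 fold changes over control 2.06 and 2.22, adjusted p = 0.000131 and 5.20e-05), and Erbb2 had 12.1, 22.8 and 27.1 (0.87 and 1.10). Erbb4 was at most 0.00483 FPKM. Of 6 ligands tested, 1 was higher and 1 lower in TAI, where 8.81% of all genes were higher and 26.1% lower. Tgfa, a ligand made by enterocytes, had means of 4.24, 6.26 and 5.96 FPKM (0.48 in TAI, adjusted p = 0.0250). Areg, amphiregulin, fell from 108 to 54.7 FPKM in TAI (−0.95, adjusted p = 0.0342) and was at 24.8 in TAI/IVIg (−2.13 against control, adjusted p = 0.000973). With IVIg 1 of the 6 ligands was higher than in control, again Tgfa (0.42, adjusted p = 0.0324), and 3 were lower, which besides Areg were Ereg and Btc, named here after their values were seen. In that comparison 9.06% of all genes were higher and 37.4% lower.

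Negative regulators of EGFR and ERK followed in part. Of 12 tested, 2 were higher in TAI and 0 lower, namely Errfi1 (log2 fold change 1.47, adjusted p = 0.00418) and Dusp6, the phosphatase of ERK (85.3, 173 and 171 FPKM; 1.02 in TAI, adjusted p = 0.00839). Of these 12, 3 stood above and 3 below control in TAI/IVIg. The shares of all genes were 8.81% higher and 26.1% lower in TAI, and 9.06% and 37.4% in TAI/IVIg. Among 17 genes of SRF, its partners and the MAPK chain, 14 were not called in TAI and 9 were not called in TAI/IVIg against control. The RAS genes Hras (−0.67) and Nras (−0.36) were lower in TAI. The median of the 17 was −0.08 in TAI, between that of all genes and 0.

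Other immediate early genes were called more often higher than lower against control. After TAI, 9 of the 27 tested stood above control and 0 below, with a median of 0.42 on the log2 scale. Of all genes, 8.81% were higher and 26.1% lower. Fosl2, which encodes the Fos relative FRA2, had means of 17.1, 55.4 and 51.9 FPKM (1.64 in TAI, adjusted p = 0.00110), a larger log2 change than that of Fos. Btg2, an antiproliferative gene under p53 control, had 29.4, 97.8 and 85.4 FPKM (1.72, adjusted p = 0.00154), and Ccn1, a matricellular protein gene, 1.55, 7.20 and 3.72 (1.69, adjusted p = 0.00154). With IVIg after irradiation, 7 of the 27 stood above control and 3 below, beside 9.06% and 37.4% of all genes. Between the irradiated groups 0 of 27 were called, and 7 were lower and 0 higher at an unadjusted p under 0.05. At that level 11.2% of all genes were lower and 1.64% higher.

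The relatives of the AP-1 and Klf genes were called in both directions. Of 11 further AP-1 and dimer partners, Fosl2 and the small Maf gene Mafk (17.9, 34.6 and 34.0 FPKM; 0.89, adjusted p = 0.0223) were higher in TAI and Mafg was lower (−0.75). In TAI/IVIg 2 were higher and 2 lower than in control. Of 10 other Klf genes, 3 were higher in TAI, namely Klf9 (6.19, 12.5 and 8.51 FPKM; 0.90), Klf7 (1.92, 3.24 and 1.71; 0.54) and Klf3 (19.1, 25.9 and 24.3; 0.42), and 1 was lower, Klf5, a factor of proliferating crypt cells (52.1, 36.3 and 36.2; −0.52). TAI/IVIg mice had 0 of these 10 above control and 2 below. Beside these counts, 8.81% of all genes were higher and 26.1% lower in TAI, and 9.06% and 37.4% in TAI/IVIg.

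Villus tip and crypt genes moved in opposite directions beside them. Of 8 villus tip genes 6 were higher in TAI and 0 lower, with a median log2 fold change of 3.48, well above the 1.48 of Egfr, and 7 were higher in TAI/IVIg (median 3.75). Among all genes, 8.81% were higher and 26.1% lower in TAI, and 9.06% and 37.4% in TAI/IVIg. Enpp3, an ectonucleotidase, had means of 5.85, 150 and 218 FPKM (4.53 in TAI, adjusted p = 9.19e-05), Apoa4, an apolipoprotein of chylomicrons, 312, 2276 and 3235 (2.91), and the nucleoside transporter gene Slc28a2 17.8, 556 and 525 (4.91). Their summed level was 1935 to 2933 FPKM in control, 6533 to 8575 in TAI and 7026 to 10655 in TAI/IVIg. Of 4 crypt genes tested, 3 were lower in each irradiated group, Mki67, Top2a and Olfm4, and the sum over 6 genes was 23.1 to 95.2 FPKM in control, 8.40 to 11.1 in TAI and 2.71 to 7.06 in TAI/IVIg. The share of villus tip cells in the levels of Fos, Klf4 and Egfr was not tested.

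**Figure D5:**
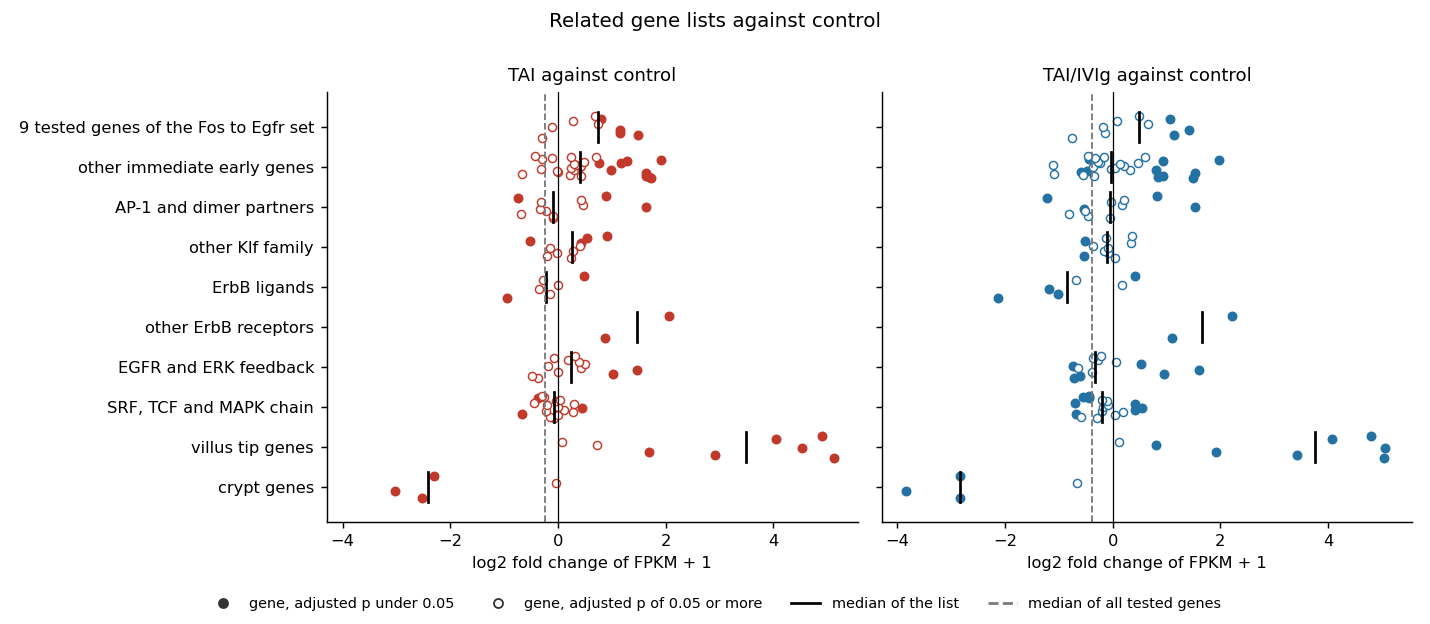
Log2 fold change of FPKM + 1 (horizontal axis) against control in TAI (left) and TAI/IVIg (right) for tested genes of each list, the uppermost row holding the 9 genes described here; points are genes, filled at an adjusted p under 0.05, black bars the list medians and the dashed line the median of all genes. Villus tip genes lie far to the right (medians 3.48 and 3.75) and 3 of the 4 crypt genes lie to the left, with Smoc2 near 0 in TAI (−0.03).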

How the data were processed

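RNA of 9 jejunal samples was sequenced, and the authors deposited FPKM values per gene, a column per mouse (9 columns used, 0 not used). The submitters' processing notes name FastQC, Trimmomatic, STAR, featureCounts, DESeq2 and mm10/GRCm38, with versions not given in the sources used here. Whole reads behind the FPKM were recovered from the steps between values (99.997% of genes whole within 0.0001 reads), and the lengths these imply equal the GENCODE M21 exon lengths for 30583 genes.

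Genes reaching an FPKM of 1 in 3 or more mice entered limma 3.58.1 (R 4.3.3, trended empirical Bayes) on log2(FPKM + 1), a scale that understates changes of low genes, over all 9 mice, two-sided, with Benjamini-Hochberg adjustment over 13056 genes and a threshold of 0.05. The fit was tested on reads simulated from the control means with a common spread. That simulation held no shift in the median of all genes and no unequal spread between groups, so it does not cover these. Figures were drawn with matplotlib 3.10.9. Groups and mouse numbers came from the sample titles. Once group means were subtracted, like-numbered mice of control and TAI correlated (r = 0.271, 0.241 and 0.308). Unlike-numbered mice of these groups gave −0.336 to 0.146. With TAI/IVIg, like-numbered pairs gave −0.296 to 0.201 and unlike-numbered pairs −0.381 to 0.408. Deviations of mice within a small group are tied to each other, so these values do not establish a pairing. The fit has no replicate block, which was an alternative. No source says what a shared number means. Each library is a separate mouse by its label. The p-values set each group difference against the spread between mice, shared over all groups and moderated over genes.

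The genes and lists were chosen with earlier results of these data known, so their counts beside those of all genes are descriptions. All 10 genes are named, with up to 3 genes per list and direction by adjusted p in TAI against control, and the 3 nearest profiles to Fos, Klf4 and Egfr. Alternatives were another pseudocount (0.1), 2 filters (none, and a mean FPKM of 5), quantile normalization, equal library medians, the block, no trend, only the 6 mice of a comparison, voom on recovered reads (library sizes by total or by median ratio), and each mouse left out. A result on 1 gene of the lists is not reported here.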

Additional observations from a re-analysis of the deposited data

How the results depend on the processing

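Log2 fold changes of the 9 tested genes kept their direction and their side of the threshold in 248 of 270 recomputations under other settings and in 222 of 243 with a mouse left out. The replicate block changed no call of these genes and moved no count of calls by more than 1.5 times except in TAI/IVIg against TAI, from 0 to 3 genes. In TAI against control, 2 of the 9 were called without the filter, with adjusted p of 0.0780 for Egr1 and 0.0547 for Klf4, and leaving out a mouse gave 2 to 6 called and, over all genes, 2343 to 4902 in place of 4561. The genes called fell to 2614 without control mouse 2, 2761 without control mouse 3 and 2343 without TAI mouse 1. For TAI/IVIg with control as the reference, a mean FPKM of at least 5 left 3381 genes called in place of 6063, fewer genes being tested, and leaving out a mouse gave 4285 to 6056 genes and 3 to 4 of the 9. Between the irradiated groups, no filter gave 4 genes. Signs turned with library medians set equal for Ier2 (0.18, 0.30 and 0.12 in TAI against control, TAI/IVIg against control and TAI/IVIg against TAI), Egr1 (0.34 in TAI/IVIg against control) and Jun (0.11 in TAI/IVIg against TAI). They turned with quantile normalization for Ier2 (0.15 and 0.13 against control) and Egr1 (0.34), and with voom and median-ratio library sizes for Ier2 (0.19, 0.28 and 0.0885), Egr1 (0.30) and Jun (0.0920). With a mouse left out, values that changed sign ran in TAI/IVIg against control from −0.43 to 0.23 for Egr1 and from −0.12 to 0.18 for Junb, and in TAI/IVIg against TAI from −0.0186 to 0.55 for Fos, −0.42 to 0.24 for Jun and −1.19 to 0.0590 for Atf3. Apart from the smaller number of genes tested, the causes were not tested. Fosb, with 16 to 189 recovered reads a mouse, was under the filter and was not tested.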

Other observations

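Stress genes outside the immediate early class were called in both directions. Of 7 heat shock chaperone genes, 1 was higher and 3 were lower in TAI than in control, beside 8.81% and 26.1% of all genes tested. Hsp90aa1, a cytosolic chaperone, had mean FPKM of 116 in control mice, 35.4 after TAI and 24.6 after TAI/IVIg (log2 fold change −1.60 in TAI, adjusted p = 0.00467), and Hspa8 had 307, 137 and 120 (−1.13). Dnajb1, a co-chaperone, was higher in TAI (14.4 and 27.7 FPKM; 0.86). With IVIg, 0 stood above control and 5 below, beside 9.06% and 37.4% of all genes. The summed level of the 7 genes was 323 to 666 FPKM in control, 196 to 281 in TAI and 156 to 219 in TAI/IVIg, and control mouse 2, the mouse with the highest Fosb, had the 666.

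In the integrated stress response, in which ATF4 and its relatives drive amino acid genes, 6 of 7 genes were lower and 1 higher in TAI. Chac1 had mean FPKM of 6.74, 0.757 and 0.455 in control, TAI and TAI/IVIg (log2 fold change −2.14 in TAI), Asns, asparagine synthetase, 22.6, 6.78 and 3.90 (−1.63), and Atf5 17.0, 4.63 and 3.37 (−1.68). Sesn2, which also responds to p53, was the gene that was higher (2.01, 4.65 and 3.20 FPKM; 0.93). Atf3, often counted with this pathway, was not called (−0.30, adjusted p = 0.714). With IVIg, 1 of the 7 stood above control and 5 below. Lower calls made up 26.1% of all genes in TAI and 37.4% in TAI/IVIg, and higher calls 8.81% and 9.06%.

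Of 7 epithelial markers 3 were lower in TAI, Krt19, Krt8 and Cdx2, and 0 higher, and against control in TAI/IVIg 1 was higher and 3 lower. Of 7 leukocyte markers tested, S100a9, a neutrophil protein gene, was higher in TAI (0.515 and 2.99 FPKM), and 0 were lower. S100a9 rested on only 2 to 42 recovered reads a mouse, and S100a8, with 1 to 15, was under the filter. Of 5 endothelial markers 0 were called in any comparison. In TAI/IVIg against control 4 of 6 fibroblast markers were lower and 0 of 6 smooth muscle markers were called. The shares of all genes were 8.81% higher and 26.1% lower in TAI, and 9.06% and 37.4% in TAI/IVIg.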
